A study of Mus musculus with 6 samples.

Results

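The IFIT, Mx and viperin group comprises interferon-induced genes whose products act on viral RNA, viral nucleotides and viral protein synthesis. The 10 genes listed were Ifit1, Ifit2, Ifit3, Mx1, Mx2, Rsad2, Cmpk2, Ifi44, Ifi44l and Eif2ak2, and every array probe annotated to them by symbol or by the older symbols Tyki, Prkr and H28 was taken. This gave 11 probes for 9 genes, among 34885 probes for 19057 genes on the whole array, and no probe named Ifi44 was found. Of the 9 genes, 5 (Ifit2, Ifit3, Rsad2, Cmpk2 and Eif2ak2) were measured above background by some probe on 1 or more arrays and entered the test over 10160 genes. The other 4 (Ifit1, Mx1, Mx2 and Ifi44l) were above background on no array.

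The study asked whether mouse embryonic fibroblasts (MEFs) without RNase H2, the enzyme that removes ribonucleotides from DNA and degrades the RNA of RNA:DNA hybrids, switch on interferon-stimulated genes. RNA was measured on 1-colour Illumina MouseWG-6 v2 BeadChips in 2 Rnaseh2b-/- p53-/- MEF lines and in 4 Rnaseh2b+/+ p53-/- control lines. All 6 lines therefore lacked p53, were on the C57BL/6J background, came each from 1 whole embryo at E10.5, were matched for passage and were grown in 3% O2, with RNA taken 20 h after a change of medium. The Rnaseh2b-/- allele, tm1d, lacks exon 5 through a Cre driven by a ubiquitous promoter, and whether the array's Rnaseh2b probes lie in that exon was not examined. The study chose these 2 Rnaseh2b-/- lines from a larger set because their interferon-stimulated genes were more strongly raised, so the direction of the changes below is not independent evidence for Rnaseh2b-/- lines in general.

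Type I interferon acts through its receptor on the transcription factor complex ISGF3, which binds a short DNA element, the interferon-stimulated response element (ISRE), in the promoters of its targets. IFIT proteins bind foreign or incompletely capped RNA and the translation factor eIF3, Mx proteins are dynamin-like GTPases that trap viral nucleoproteins, and viperin, the product of Rsad2, converts CTP into a chain terminator of viral RNA polymerases. Cmpk2 encodes a mitochondrial nucleotide kinase and lies next to Rsad2, while Eif2ak2 encodes PKR, a kinase that senses double-stranded RNA and halts translation by phosphorylating eIF2.

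The genes lie in a few clusters. In the mouse assembly GRCm38.p6, Ifit2 (chr19:34550550-34576534) and Ifit3 (chr19:34583119-34588982) were 6584 bases apart, with Ifit1 further along the same chromosome (chr19:34640889-34650009). Rsad2 (chr12:26442743-26456452) and Cmpk2 (chr12:26469117-26479837) were separated by 12664 bases, and Mx1 and Mx2 both lie on chromosome 16 and are annotated there as transcribed pseudogenes. The RefSeq promoter table for GRCm38.p6, which gives 250 bases before to 50 bases after each start site, held windows for 8 of the 10 genes and none for Mx1 or Mx2. These windows were searched on both strands for an ISRE-like motif, GAAA followed by any 2 bases and again GAAA. The stretches that hold a match are shown because the motif resembles the element through which ISGF3 is known to act. Each is read 5' to 3' on the strand of the gene, with the matches in capitals:

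Ifit1, chr19:34640770-34640828, plus strand: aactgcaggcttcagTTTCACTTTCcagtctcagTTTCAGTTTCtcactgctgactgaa

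Ifit3, chr19:34583358-34583431, plus strand: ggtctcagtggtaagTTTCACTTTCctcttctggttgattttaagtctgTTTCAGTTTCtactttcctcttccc

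Rsad2, chr12:26456548-26456587, minus strand: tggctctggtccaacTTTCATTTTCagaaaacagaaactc

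Eif2ak2, chr17:78882535-78882564, minus strand: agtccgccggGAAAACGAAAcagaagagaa

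Ifit1 and Ifit3 each held 2 matches and Rsad2 held 1, all with the motif on the strand opposite to the gene, so that it reads as TTTC repeats. Eif2ak2 held 1 match, 19 to 28 bases after its start site. The windows of Ifit2 (2 start sites), Cmpk2, Ifi44 and Ifi44l held no match, which says only that these letters are not in those windows. Over all 27025 genes in that promoter set, 3.99% had a match and 0.266% had 2 or more. In this group 4 of 8 genes had a match. So did 14 of the 31 listed other interferon-induced antiviral effectors that have a window, counted whether or not they were tested on the array. A match is a description of the sequence and was not tested as a binding site. The Ifit3 stretch occurs unchanged in the promoter window of Ifit3b, a near copy of Ifit3 on the same chromosome, with a longest shared run of 169 bases. The start site of the Ifit3 window lies inside the gene span given above, and so does the stretch. The same holds for Ifit3b and its own span. The stretch of Ifit1 also lies in a promoter window of its paralog Ifit1bl2, which is transcribed on the opposite strand.

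**Figure D1:**
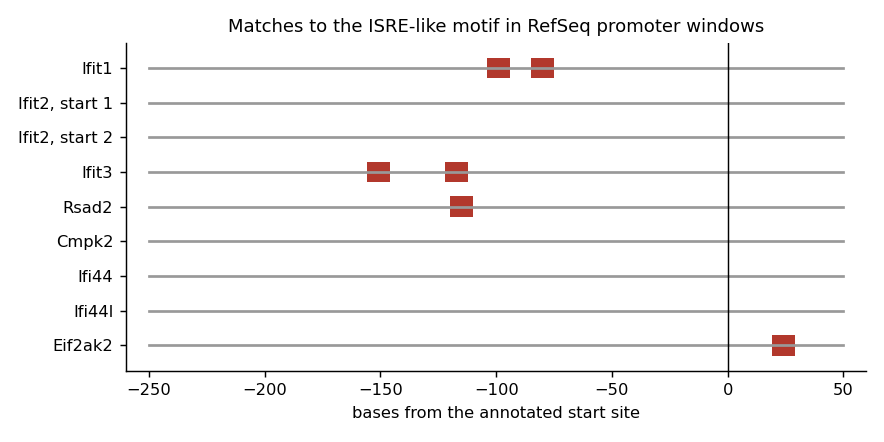
Positions of the ISRE-like motif, a pair of GAAA with 2 bases between (red boxes, either strand), in RefSeq promoter windows of 8 genes. The x axis is the distance in bases from the annotated start site (vertical line) and each grey line is 1 window. Ifit1 and Ifit3 held 2 matches each, Rsad2 and Eif2ak2 held 1, and only that of Eif2ak2 lay after the start site.

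The arrays were alike in detection, with between 15519 and 16114 of 45281 probes above background (detection p under 0.01) and correlations of 0.928 to 0.988 between arrays. Median raw intensity was lower on both Rnaseh2b-/- arrays (107.6 and 115.2) than on the control arrays (124.1, 129.3, 129.3 and 124.8). The knocked-out gene itself, Rnaseh2b, gave a mean log2 signal of 5.48 ± 0.07 in Rnaseh2b-/- lines (SD, n = 2) and of 9.49 ± 0.26 in controls (SD, n = 4), with a fitted log2 fold change of -4.01 (limma adjusted p = 0.00121). Of its 2 probes, 1 was above background in neither Rnaseh2b-/- line and at least 14.7-fold lower there, and the other was above background in 1 of these lines, so the fitted size is set partly by the background. All 12 fibroblast markers examined were above background on every array. Markers of other cells differed between the lines. The 15 tested of 19 skeletal and cardiac muscle markers averaged 10.87 in Rnaseh2b-/- replicate 1 and 6.87 in replicate 2, against 5.75 to 6.64 in controls, and the 7 tested of 12 epithelial markers averaged 7.77 and 6.83, against 5.20 to 5.84 in controls (mean log2 signal). The blood and macrophage markers Ptprc, Csf1r, Spi1, Adgre1 and Itgam were above background on no array, and the 3 of 16 that were tested averaged 5.63 and 5.10 in Rnaseh2b-/- lines, against 4.86 to 6.10 in controls. In bulk RNA a change in the number of cells of a type and a change in RNA per cell cannot be told apart.

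None of the 5 tested genes passed the threshold of the whole table (limma with Benjamini-Hochberg adjustment, adjusted p under 0.05), where 0.354% of 10160 genes were higher and 0.157% lower. An unadjusted p under 0.05 was reached by 4 of the 5 (Ifit3, Rsad2, Eif2ak2 and Cmpk2), all with higher signal in Rnaseh2b-/- lines, beside 7.99% of all genes higher and 9.13% lower by that measure. All 5 fold changes were above 0, beside 47.4% of all genes. In 3 of the 5 (Ifit3, Rsad2 and Eif2ak2) both Rnaseh2b-/- lines lay above all 4 controls, as in 12.5% of all genes. Rsad2 and Cmpk2 entered the test only through 1 Rnaseh2b-/- line, so these counts describe the genes that could be tested and not the whole group. The lowest p that exact permutation of 2 and 4 lines can reach for any 1 gene is 0.0667, and smaller p-values rest on limma's model of the spread.

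Detection was also compared probe by probe. Of the 11 probes, 3 (1 of 2 for Ifit3, and those of Rsad2 and Cmpk2) were above background in at least 1 Rnaseh2b-/- line and in no control, beside 1.99% of all named probes, and none showed the opposite, beside 3.34%. A further 4 probes were above background on all 6 arrays and 4 on none, beside 34.9% and 54.7% of all named probes.

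**Figure D2:**
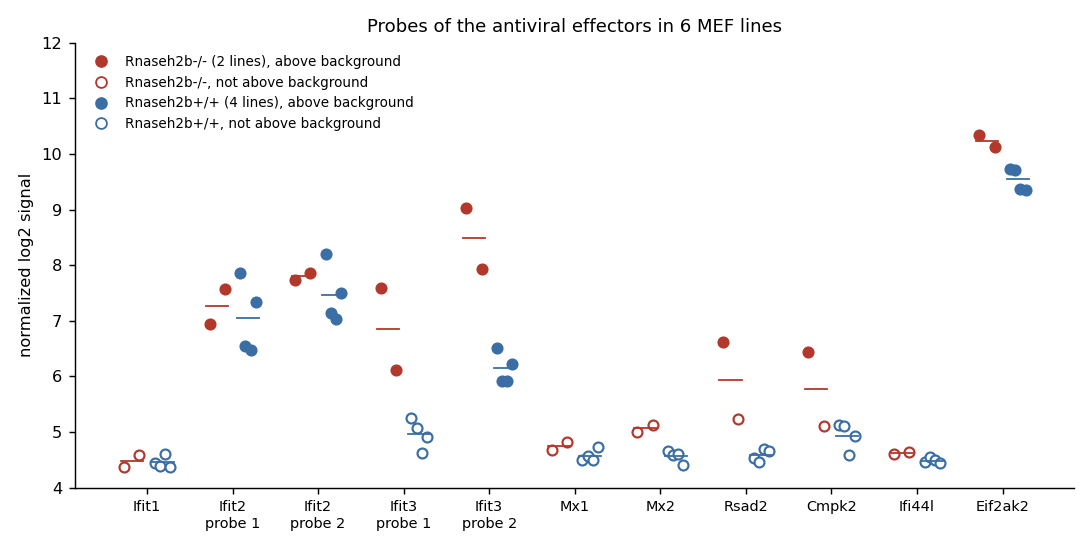
Normalized log2 signal (y axis) of the 11 probes in each of 2 Rnaseh2b-/- lines (red) and 4 Rnaseh2b+/+ lines (blue), with group means as bars. Filled points were above background (detection p under 0.01) and open points were not. Both Ifit3 probes were higher in each Rnaseh2b-/- line than in any control, and all points of Ifit1, Mx1, Mx2 and Ifi44l were unfilled. Signals of different probes are not comparable with each other.

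Of the IFIT genes, Ifit3, whose product pairs with IFIT1 in human cells and stabilizes it, had the largest fold change of the 5 tested genes. Its normalized log2 signal, the mean of 2 probes, was 8.31 and 7.03 in Rnaseh2b-/- replicates 1 and 2, against 5.88, 5.49, 5.27 and 5.57 in the controls. Both Rnaseh2b-/- lines lay above every control, with replicate 1 well above replicate 2. The means were 7.67 ± 0.90 (SD, n = 2) and 5.56 ± 0.25 (SD, n = 4), so that Ifit3 was 4.33-fold higher on average (log2 fold change 2.11, standard error 0.35, 95% interval 1.29 to 2.93, limma adjusted p = 0.0608). Replicate 1 was 6.74-fold and replicate 2 was 2.78-fold above the control mean. Among 10160 genes Ifit3 ranked 80th by p-value and 69th by fold change.

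The 2 Ifit3 probes differed in brightness and in what they show of the controls. The brighter one had 9.02 and 7.94 in Rnaseh2b-/- lines, against 6.51, 5.91, 5.92 and 6.23 in controls, and was above background in all 6 lines. Its raw intensity was 527 and 313 in Rnaseh2b-/- lines, against 195, 174, 165 and 169 in controls, so the separation was present before normalization. Tested as 1 probe, it passed the threshold (log2 fold change 2.34, standard error 0.32, limma adjusted p = 0.0374). The dimmer one, at 7.59 and 6.12 in Rnaseh2b-/- lines, against 5.26, 5.07, 4.63 and 4.92 in controls, was detected in each Rnaseh2b-/- line and in none of the controls. Only 0.275% of all named probes showed that pattern. Its signal was at least 2.45-fold higher in Rnaseh2b-/- lines (limma adjusted p = 0.0911). Such a bound sets the Rnaseh2b-/- mean against the higher of the control signal and the lowest signal of any detected probe on each control array. No probe was named for Ifit3b, and the sequences of the probes were not used here, so signal from Ifit3 and Ifit3b could not be told apart.

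Ifit2, a paralog that neighbours Ifit3, showed no such separation. Its signal, from 2 probes above background in every line, was 7.34 and 7.72 in Rnaseh2b-/- lines, against 8.03, 6.85, 6.76 and 7.42 in controls. The groups overlapped, and the highest value of all belonged to control replicate 1. The log2 fold change was 0.27 (standard error 0.36, 95% interval -0.59 to 1.12, limma adjusted p = 0.736), with 0.20 and 0.33 at the single probes. The interval leaves room for a change of up to 1.12 on the log2 scale, so the data do not show that Ifit2 was unaltered. The difference between the changes of Ifit2 and Ifit3 was -1.85 on the log2 scale, and the within-line difference between the genes did not overlap between the groups (exact permutation test, two-sided p = 0.0667, the smallest that 15 arrangements allow; adjusted p = 0.167 over 10 pairs of genes).

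Ifit1, the IFIT protein best known for binding RNA that lacks cap methylation, was at background. Its single probe gave 4.38 and 4.58 in Rnaseh2b-/- lines, against 4.45, 4.39, 4.61 and 4.37 in controls. The groups overlapped, and no line reached a detection p below 0.31. The probes of the paralogs Ifit1bl1 and Ifit1bl2 were above background on no array either. For these genes the array sets no level, and a change below its background could not be seen.

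Rsad2, which encodes viperin, was detected in 1 line. Its probe gave 6.62 and 5.24 in Rnaseh2b-/- lines, against 4.54, 4.46, 4.70 and 4.66 in controls, with detection p-values of 0 and 0.0321 in Rnaseh2b-/- lines and of 0.214 to 0.645 in controls. Both Rnaseh2b-/- lines lay above every control, though replicate 2 was not above background by the threshold used. Before normalization replicate 2 was close to the highest control, with a raw intensity of 127 against 126 in control replicate 3. The fitted log2 fold change of Rsad2 was 1.34 (standard error 0.35, limma adjusted p = 0.140). No lower bound is given for the mean of the Rnaseh2b-/- lines, since replicate 2 was itself not above background. The fitted size rests on the signal of replicate 2 and on control signals at background.

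Cmpk2, the neighbour of Rsad2, was likewise above background in Rnaseh2b-/- replicate 1 alone. Its signal was 6.44 and 5.12 in Rnaseh2b-/- lines, against 5.12, 5.10, 4.59 and 4.93 in controls. Replicate 2 lay level with the highest controls, so the groups overlapped. The fit gave 0.84 on the log2 scale (limma adjusted p = 0.289), carried by replicate 1, and the controls and replicate 2 were all at background. Whether Rsad2 and Cmpk2 differed in the size of their change could not be read from signals at background.

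Eif2ak2, which encodes PKR, was above background in every line and had the smallest fold change of the 3 genes whose groups did not overlap. It had 10.34 and 10.12 in Rnaseh2b-/- lines, against 9.74, 9.72, 9.38 and 9.36 in controls. Both Rnaseh2b-/- lines lay above every control by a small margin and close to each other. The mean was 10.23 ± 0.16 (SD, n = 2) in Rnaseh2b-/- lines and 9.55 ± 0.21 (SD, n = 4) in controls, which is 1.60-fold higher (log2 fold change 0.68, standard error 0.17, 95% interval 0.27 to 1.09, limma adjusted p = 0.138). The raw intensity of Eif2ak2 did overlap, at 1181 and 1086 in Rnaseh2b-/- lines, against 1011, 1110, 801 and 708 in controls, so the groups were apart only after normalization.

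**Figure D3:**
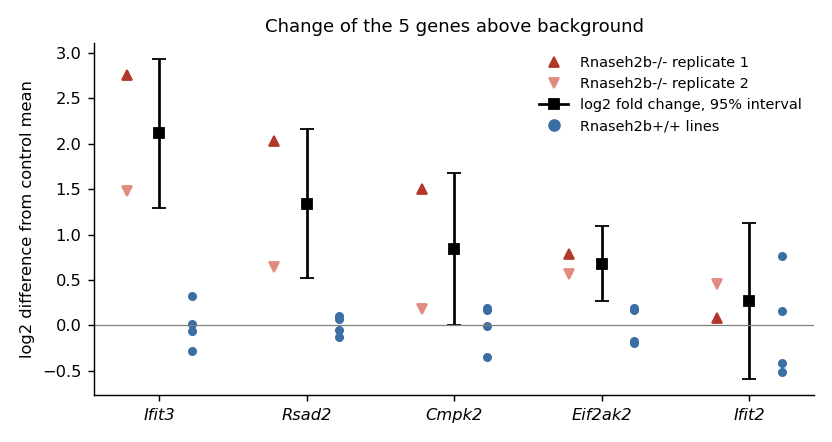
Log2 difference from the control mean (y axis) for the 5 genes above background. Triangles are Rnaseh2b-/- replicates 1 and 2, black squares with bars are the log2 fold change with its 95% interval, and blue points are the 4 Rnaseh2b+/+ lines. Ifit3 had the largest change at 2.11, and the interval of Ifit2 crossed 0.

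The Mx genes, known to be non-functional in C57BL/6 and many other laboratory strains, gave no signal above background. Mx1 had 4.67 and 4.83 in Rnaseh2b-/- lines, against 4.49, 4.56, 4.51 and 4.72 in controls. Mx2 had 5.01 and 5.13 in Rnaseh2b-/- lines, against 4.66, 4.59, 4.60 and 4.40 in controls. The 2 values for Mx2 lay above every control, but the detection p was 0.0748 and 0.0417 in Rnaseh2b-/- lines and 0.218 to 0.845 in controls. The raw intensity of Mx2 overlapped, at 113 and 125 in Rnaseh2b-/- lines, against 119, 121, 123 and 109 in controls. With no filter on dim probes its log2 difference was 0.51 (limma adjusted p = 0.122). Ifi44l, an interferon-induced gene of less settled function, had 4.60 and 4.64 in Rnaseh2b-/- lines, against 4.46, 4.55, 4.50 and 4.44 in controls, all at background.

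Of the 5 tested genes, 4 (all but Ifit2) were higher in Rnaseh2b-/- replicate 1 than in replicate 2, beside 48.4% of all genes tested. For Rsad2 and Cmpk2 this order was fixed by the filter, since replicate 1 was the line through which they passed it. Replicate 1 exceeded replicate 2 by 2.43-fold in Ifit3 and by 1.17-fold in Eif2ak2. Of the 1273 genes with both Rnaseh2b-/- lines above all controls, 784 were higher in replicate 1. Replicate 1 was also the line with the highest muscle markers, while epithelial markers were above the controls in both Rnaseh2b-/- lines, and the part of either in these values was not tested. Without replicate 1, Rsad2 and Cmpk2 were above background on no array and could not be tested. The log2 fold change was then 1.48 for Ifit3 and 0.57 for Eif2ak2. Without replicate 2, the log2 fold change was 2.77 for Ifit3, 2.05 for Rsad2 and 1.51 for Cmpk2. Each of these fits holds 1 Rnaseh2b-/- line, assumed to vary as the controls do, so only sizes of change are given. Rsad2 and Cmpk2 passed the filter through replicate 1 alone and were at background in all controls, so their values without replicate 2 are no separate support.

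**Figure D4:**
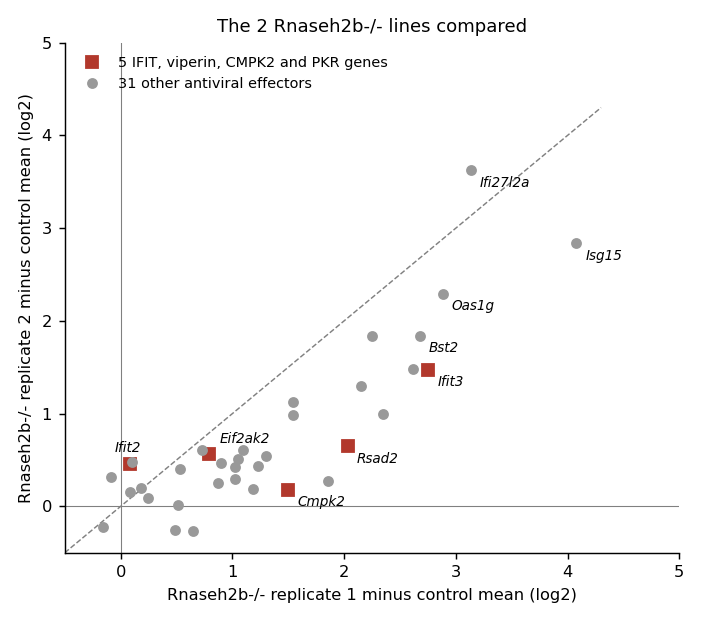
Log2 difference from the control mean in Rnaseh2b-/- replicate 1 (x axis) and replicate 2 (y axis) for the 5 genes (red squares) and 31 other interferon-induced antiviral effectors (grey circles). The dashed line marks equal values. Points below it were higher in replicate 1, as were 4 of the 5 genes and 26 of the 31, beside 48.4% of all genes tested. Among the 31, Ifih1, Dhx58, Oasl1, Gbp7 and Zc3hav1 were above background in 1 Rnaseh2b-/- line and in no control, so the filter bears on their order. Rsad2 and Cmpk2 passed the filter through replicate 1 alone.

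Among genes above background in every line, the change of Ifit3 exceeded that of Eif2ak2 by 1.43 on the log2 scale, with the smallest p that 15 arrangements allow (exact permutation test, two-sided p = 0.0667, adjusted p = 0.167 over the 10 pairs of tested genes). For this comparison 1 of the 2 Ifit3 probes was at background in the controls. The pairs that include Rsad2 or Cmpk2 are not given, since those genes were at background in every control.

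The signalling genes upstream of the group showed 1 call. Of 7 tested genes of the interferon receptor and ISGF3, only Usp18, an ISGF3 target whose product restrains the receptor, passed the threshold. It had 8.65 and 7.98 in Rnaseh2b-/- lines, against 5.64, 5.06, 5.30 and 5.71 in controls (log2 fold change 2.88, limma adjusted p = 0.0141). At an unadjusted p under 0.05, 3 of the 7 were higher, beside 7.99% of all genes. None of 5 tested interferon regulatory factors passed, though 3 (Irf5 and Irf7 with higher signal in Rnaseh2b-/- lines, Irf3 with lower) had an unadjusted p under 0.05. By that measure 7.99% of all genes were higher and 9.13% lower. Irf7, the factor that amplifies interferon production, had 5.62 and 4.87 in Rnaseh2b-/- lines, against 4.65, 4.83, 4.58 and 4.57 in controls (fitted log2 fold change 0.59, limma adjusted p = 0.247). Irf5 was at 0.53 (limma adjusted p = 0.227) and Irf3, the constitutive factor that starts the response, at -0.36 (limma adjusted p = 0.233). Irf1 was at 0.32 (limma adjusted p = 0.479). Irf5 and Irf7 were above background in 1 Rnaseh2b-/- line and in no control, so their fitted sizes rest on background. Of 18 interferon genes 3 were tested and none passed at either p, and the probe of Ifnb1 was above background on no array.

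The other interferon-induced antiviral effectors held several calls. Of 31 tested, 7 were higher and none lower at an adjusted p under 0.05, beside 0.354% and 0.157% of all genes. At an unadjusted p under 0.05, 20 were higher, beside 7.99%. In 20 both Rnaseh2b-/- lines lay above all controls, beside 12.5%. Oas1g, Ifi27l2a, Parp14, Ifih1, Dhx58, Oasl1, Gbp7 and Zc3hav1 were above background in no control and entered the test only through Rnaseh2b-/- lines. The filter thus bears on these counts, which describe the genes that could be tested. The list was also chosen with earlier results of these data known, so the counts are not independent support. The median log2 fold change of the 31 was 0.72, and that over all genes was -0.02. Over the 5 tested genes described here the median was 0.84, which is the value of Cmpk2 itself. Cmpk2 passed the filter through 1 Rnaseh2b-/- line and was at background in all controls, so this median is not compared with the others. Isg15, a ubiquitin-like modifier, had 11.29 and 10.05 in Rnaseh2b-/- lines, against 6.85, 7.54, 7.04 and 7.43 in controls (log2 fold change 3.46, limma adjusted p = 0.0258). Oas1g, of the family that makes the activator of RNase L, had 7.53 and 6.93 in Rnaseh2b-/- lines, against 4.78, 4.54, 4.66 and 4.60 in controls, and was above background in no control, which makes it at least 3.17-fold higher (limma adjusted p = 0.00954). Ifi27l2a, likewise above background in no control, was at least 7.43-fold higher (limma adjusted p = 0.0141). The tethering factor Bst2, which holds budding virions at the membrane, had a log2 fold change of 2.26 (limma adjusted p = 0.0278).

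Genes that work with these effectors were counted in the same way, and none of them passed the threshold. At an unadjusted p under 0.05 each list held 0 or 1 gene, beside 7.99% of all genes higher and 9.13% lower, so nothing is read from these counts about the lists, and the single genes are given as values. Among 17 genes of the PKR circuit, 1 reached that p. That gene was Prkra, which encodes the PKR activator PACT (9.82 and 10.01 in Rnaseh2b-/- lines, against 10.08, 10.41, 10.55 and 10.36 in controls; log2 fold change -0.44, limma adjusted p = 0.262). Dnajc3, which encodes the PKR inhibitor P58IPK, was at -0.33, and Ppp1r15a, which encodes the eIF2 phosphatase subunit GADD34, at -0.45. Of 11 nucleotide kinases 1 was lower at an unadjusted p under 0.05, Cmpk1, the cytosolic UMP and CMP kinase, with 9.61 and 9.54 in Rnaseh2b-/- lines, against 10.16, 9.83, 10.09 and 10.10 in controls (log2 fold change -0.47, limma adjusted p = 0.194). Of 10 genes for maturation or partners of viperin 1 was lower at that p, Fdps, the farnesyl diphosphate synthase that viperin binds, with 9.40 and 9.39 in Rnaseh2b-/- lines, against 9.92, 9.85, 9.94 and 9.70 in controls (log2 fold change -0.46, limma adjusted p = 0.170). Of 8 genes for cap methylation and eIF3 1 was higher at that p, Cmtr1, the cap methyltransferase whose mark IFIT1 reads as self (log2 fold change 0.37, limma adjusted p = 0.282). None of the 5 constitutive dynamin-family GTPases reached an unadjusted p under 0.05, and their fold changes ran between -0.16 and 0.10.

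For each tested gene, the genes with the most similar profile over the 6 lines were found by the root-mean-square difference of log2 signal from the control mean. Nearest to Ifit3 were Smpd3, a sphingomyelinase (difference 0.07), Cxcl10, an interferon-induced chemokine (0.18), and Chn2 (0.19). Cxcl10 had 7.05 and 6.03 in Rnaseh2b-/- lines, against 4.92, 4.66, 4.47 and 4.72 in controls, and was above background in no control. Nearest to Rsad2 were Cysltr1, Fn3k and Plvap (0.12 to 0.13), and nearest to Eif2ak2 were Cacybp, Plcd3 and Nfat5 (0.07 to 0.09). Those of Cmpk2 were Scrib, Prr15l and Upp1, and those of Ifit2 were Pvr, Hipk2 and Grin3a. Such neighbours are many, since 159 genes lay within 0.5 times the size of the Ifit3 profile itself, and likeness over 6 lines says nothing of shared control.

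**Figure D5:**
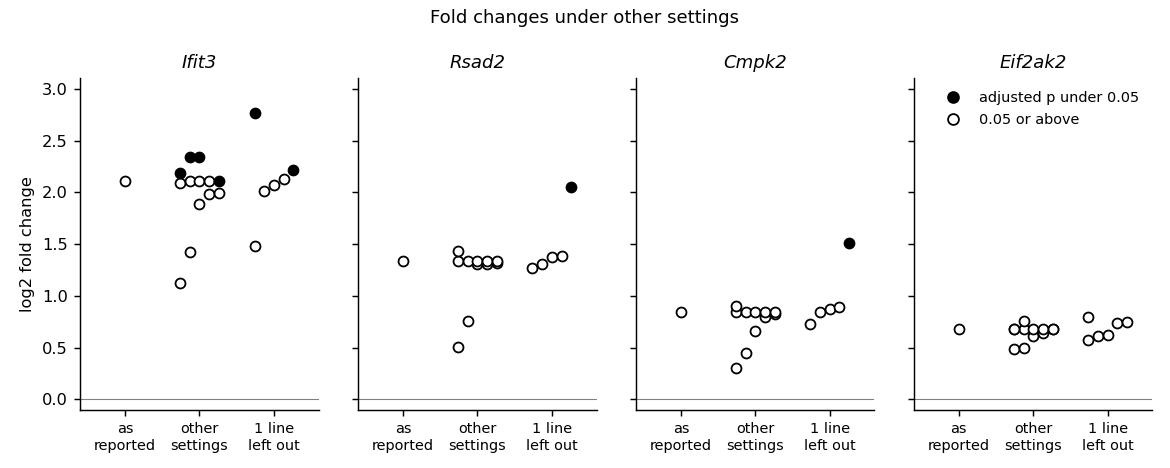
Log2 fold change (y axis) of 4 genes as reported, under other processing settings, and with 1 line left out. Filled points had an adjusted p under 0.05, which without 1 of the Rnaseh2b-/- lines rests on the single such line left. Without replicate 2, that line was the one through which Rsad2 and Cmpk2 passed the filter. Every value was above 0. Ifit3 crossed the threshold under some settings, Rsad2 and Cmpk2 only without Rnaseh2b-/- replicate 2, and Eif2ak2 under none of those run.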

How the data were processed

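Total RNA of 2 Rnaseh2b-/- and 4 Rnaseh2b+/+ MEF lines, labelled as separate biological replicates, was hybridised to 1-colour arrays. The authors deposited raw bead-summary intensity per probe with a detection p-value against negative control beads, and the log2 values that neqc of limma gave them, corrected for background and quantile-normalized. The authors' detection p-value steps in units of 1 in 936. The columns of both tables were matched to lines by name.

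Here R 4.3.3 and limma 3.58.1 were run on the deposited intensity. The function neqc, with background estimated from the detection p-values and an offset of 16, gave log2 values within 0.109 of those deposited. RefSeq gene numbers (GRCm38.p6) were used to update symbols, and 10378 probes without and 18 with several symbols were left out. Probes not reaching detection p under 0.01 on any array were dropped, those of 1 gene were averaged, and a 2-group linear model with eBayes (residual degrees of freedom 4, prior 3.07) was fitted to 10160 genes. p-values were adjusted by Benjamini-Hochberg over all genes. Steps were tested on simulated arrays. The number of arrays limits the precision, and p-values measure the spread between these lines.

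The genes and lists were chosen with earlier results of these data known. Named genes were the group, Rnaseh2b, IFIT paralogs, up to 4 genes of each list (by size of change where any passed, otherwise by p) and the 3 nearest profiles of each tested gene. Lists are described by counts and medians. Alternatives were other filters, 4 other normalizations, 2 other treatments of probes, 2 other variance models, a replicate block and the removal of each line in turn. No source named arrays sharing a BeadChip.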

Additional observations from a re-analysis of the deposited data

Results flagged for a closer look

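Among the 57 gene-by-group sets of 4 control lines examined for a line far from the others, 1 stood out, and about 2.85 would by chance at this cut-off. Eif3b, a subunit of the eIF3 complex that IFIT proteins bind, had 8.32 in Rnaseh2b+/+ replicate 4, against 8.12, 8.14 and 8.14 in the other controls. The gap to the nearest control made up 0.904 of the range of the 4 controls. The Rnaseh2b-/- lines had 8.21 and 7.91, and the log2 fold change was -0.12 (limma adjusted p = 0.691).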

How the results depend on the processing

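The directions of all 5 tested genes and of Rnaseh2b were kept under every alternative run. Where both Rnaseh2b-/- lines were kept, the limma adjusted p ran from 0.0374 to 0.265 for Ifit3 and 0.110 to 0.451 for Rsad2. It ran from 0.231 to 0.615 for Cmpk2, 0.0877 to 0.565 for Eif2ak2 and 0.277 to 0.953 for Ifit2. Ifit3 passed the threshold with the brightest probe per gene (log2 fold change 2.34, adjusted p = 0.0396), for probe 2 tested on its own (2.34, 0.0374), with trended and robust variance (2.11, 0.0380) and with array weights (2.18, 0.0466), so that 1 gene of the group was then higher in each of these settings and 0 in the others that kept all 6 lines. With 1 line left out, its log2 fold change ran from 1.48 to 2.77, that of Rsad2 from 1.27 to 2.05 and that of Cmpk2 from 0.73 to 1.51, and 0 to 3 genes of the group were higher. Leaving out Rnaseh2b+/+ replicate 1 let Ifit3 pass (2.21, 0.0487), and leaving out Rnaseh2b-/- replicate 2 let Ifit3, Rsad2 and Cmpk2 pass. Rsad2 and Cmpk2 could not be tested where detection was required on 2 arrays or where Rnaseh2b-/- replicate 1 was left out.

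Of all genes, 36 were higher and 16 lower. With no filter there were 18 and 9, with trended and robust variance 55 and 36, and with detection on 2 arrays 54 higher and 27 lower. Median scaling gave a median over all genes of -0.16 and 29 higher and 25 lower. With 1 line left out, 0 to 293 were higher and 1 to 112 lower, the extremes without Rnaseh2b+/+ replicate 2 (0 higher, 657 at an unadjusted p under 0.05) and without Rnaseh2b-/- replicate 2 (293 and 112). With the replicate number as a block, 0 and 0 passed (448 and 461 at an unadjusted p under 0.05), and Rnaseh2b, at -4.01, had an adjusted p of 0.156. Same-numbered lines correlated at 0.0959 and 0.0611 across genes, so the numbers were read as names. The causes were not tested. Signal near background limits Rsad2, Cmpk2, Ifit1, Mx1, Mx2 and Ifi44l.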
